A study of Mus musculus with 10 samples.

Results

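A set of 8 genes of the DNA damage checkpoint and of cell division were followed in mouse haematopoietic stem cells (HSCs) sorted with or without Jam2 on their surface. They were Atm, Atr, Topbp1, Chek1, Cdc25a, Ccnb2, Kif23 and Cdkn2d. They were selected on earlier results of the same arrays, in which the intensities of Jam2+ and Jam2- cells were compared, and each was read from its brightest row with a single gene symbol. All 8 of 8 were found, among 2721 genes that could be read in this way and 22180 genes with a single symbol in the whole series. The name of every row is inferred, because the identifiers in the deposited table are displaced from their values. The identifiers at the end of the table, 2872 of them with a single symbol, were therefore paired in file order with the same number of value rows from its start.

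Jam2 is a junctional adhesion molecule, a cell surface protein of the immunoglobulin family. Both groups were HSCs of male mice of the strain C57BL/6 SJL that carried CD150, c-kit and Sca-I and lacked CD48 and lineage markers. The groups differed only in the presence of Jam2 at the surface (Jam2+ HSC, 5 arrays; Jam2- HSC, 5 arrays), and the labels name wild-type animals and no treatment. The study used 5 mice, and neither their age nor which mouse gave which array is given in the sources used here. Differences and their standard errors therefore rest on the spread between arrays, which may be technical in part. In the standard errors, each row's variance was drawn towards that of all rows by the fit described below.

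Cells that copy damaged or incomplete DNA are held back by a relay of protein kinases. Atr, recruited to single-stranded DNA and switched on by Topbp1, phosphorylates the kinase Chek1, and Chek1 marks the phosphatase Cdc25a for destruction, so that cyclin-dependent kinases stay inhibited. Atm answers double-strand breaks in a similar way. Once the block is lifted, cyclin B2 (Ccnb2) drives entry into mitosis and the kinesin Kif23 builds the midzone that separates the daughter cells. Cdkn2d encodes p19, an inhibitor of the kinases that open the cell cycle. HSCs in the marrow are largely quiescent, so transcripts of S phase and mitosis are known to mark the minority that cycles.

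The promoters of 4 members are shown as examples with sequence elements known from cell cycle genes. Letters of such elements also stood in the promoters of Atm, Topbp1 and Cdkn2d, but not in that of Atr. All 8 members matched RefSeq's promoter table (build GRCm38.p6, 250 bases before to 50 after the gene start), and all 8 lie on chromosome 9. Genes of mitosis are known to carry CCAAT boxes, bound by NF-Y, and a cell cycle homology region (CHR) close to the start, whereas genes of S phase carry E2F sites. The letters searched on both strands were TTTGAA for the CHR, CCAAT for the box, and TTCCCGC or TTGGCGC for E2F; matches to different elements overlapped in none of the 8 promoters. The sequences below run 5′ to 3′ on the gene's own strand, with matches in capitals.
Ccnb2: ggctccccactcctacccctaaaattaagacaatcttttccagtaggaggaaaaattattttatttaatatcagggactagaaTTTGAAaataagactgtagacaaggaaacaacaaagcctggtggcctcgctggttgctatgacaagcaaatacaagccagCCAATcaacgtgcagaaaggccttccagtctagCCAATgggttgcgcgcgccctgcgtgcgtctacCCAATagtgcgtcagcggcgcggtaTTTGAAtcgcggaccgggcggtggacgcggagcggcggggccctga
Kif23: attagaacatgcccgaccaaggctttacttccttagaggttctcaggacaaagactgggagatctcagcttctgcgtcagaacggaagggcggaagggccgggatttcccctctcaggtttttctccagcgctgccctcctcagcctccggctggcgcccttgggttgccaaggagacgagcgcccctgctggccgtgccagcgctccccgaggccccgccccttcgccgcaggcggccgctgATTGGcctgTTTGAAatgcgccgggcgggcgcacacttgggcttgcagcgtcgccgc
Chek1: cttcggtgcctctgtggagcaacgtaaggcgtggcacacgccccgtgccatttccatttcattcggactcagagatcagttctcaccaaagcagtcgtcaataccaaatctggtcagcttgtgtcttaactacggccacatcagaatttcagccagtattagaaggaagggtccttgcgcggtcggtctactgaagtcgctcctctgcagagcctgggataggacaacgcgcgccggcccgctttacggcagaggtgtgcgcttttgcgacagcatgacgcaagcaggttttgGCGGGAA
Cdc25a: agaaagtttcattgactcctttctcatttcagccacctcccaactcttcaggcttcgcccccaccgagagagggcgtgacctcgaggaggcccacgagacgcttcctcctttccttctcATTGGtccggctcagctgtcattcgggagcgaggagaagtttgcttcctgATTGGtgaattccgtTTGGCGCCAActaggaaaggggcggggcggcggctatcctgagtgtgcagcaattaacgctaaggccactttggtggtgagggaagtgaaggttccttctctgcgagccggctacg

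The Ccnb2 window (chr9:70421505-70421804, minus strand) held 3 CCAAT boxes, which began 87, 54 and 21 bases before the gene start, and 2 runs of the CHR letters, one of them 4 bases after the start. The Kif23 window (chr9:61946750-61947049, minus strand) held 1 such run, 2 bases after the start, and 1 CCAAT on the opposite strand. Ccnb2 and Kif23 were the 2 members of 8 with TTTGAA, which 17.9% of all 32851 promoters held. The Chek1 window (chr9:36726609-36726908, minus strand) ended in an E2F match on the opposite strand. In the Cdc25a window (chr9:109875329-109875628, plus strand) the same E2F letters matched on both strands of one stretch, with 2 CCAAT matches upstream. E2F letters stood in 4 of 8 members, those of Atm, Topbp1, Chek1 and Cdc25a, against 6.81% of all promoters. CCAAT stood in 5 of 8, against 37.4%. A match describes the letters and is not a measured binding site.

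Before any member was read, the pairing of names and values was examined over all paired identifiers, not only those near the members. Where a pair of rows shared every one of its 10 values, both rows named the same gene in 37 of 37 cases. With the pairing moved by 1 to 5 rows, at most 17 of 30 pairs did. The sex of the animals gave a further check. Xist, the RNA that silences an X chromosome in females, had a mean of 4.61, while the Y-linked genes Eif2s3y, Kdm5d and Uty had 8.85, 7.69 and 7.95. As deposited, the rows that bear these names had 9.35 for Xist, 2.94 for Eif2s3y, 8.57 for Kdm5d and 3.83 for Uty.

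Around the members, 8 rows of ribosomal proteins had a median log2 intensity of 10.85, and 112 rows of olfactory and vomeronasal receptors had 3.67. The displacement was first seen from such levels, so the family levels are no independent check. The genes of a list for the G2 phase and mitosis, 26 of which could be read, also went together across arrays at this pairing alone among those compared. Their mean pairwise Pearson r over the 10 arrays was 0.19, against -0.01 to 0.04 when the pairing was moved by 1 to 5 rows and 0.01 as deposited. This is a correlation across arrays that share a normalization, and it is given as a description.

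**Figure D1:**
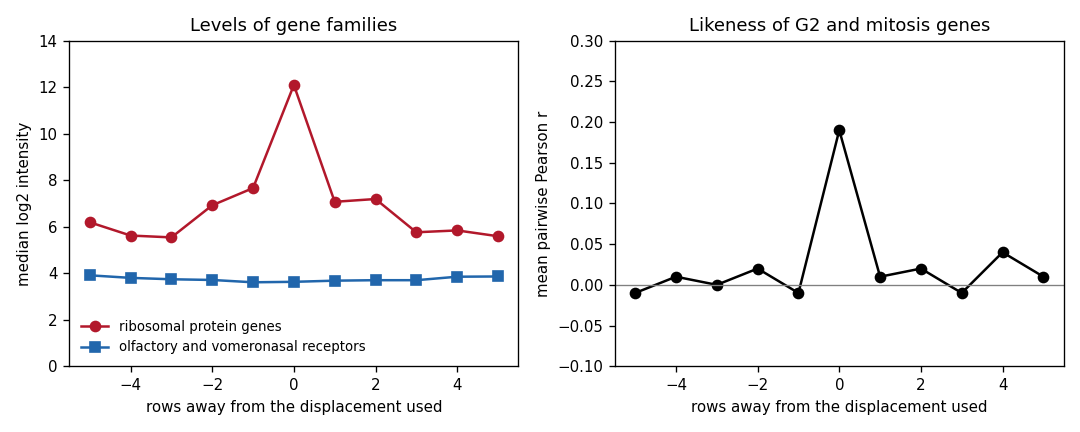
Left, the median log2 intensity of 24 ribosomal protein rows (red) and 140 olfactory and vomeronasal receptor rows (blue) when the pairing of names and values is moved by up to 5 rows from the one used; right, the mean pairwise Pearson r over 10 arrays among 26 G2 and mitosis genes. Ribosomal rows reach 12.09 and the mitosis genes 0.19 at the pairing used, and both are lower at every other pairing drawn.

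Values are log2 intensities, and the array medians lay between 5.96 and 6.05. Jam2+ replicate 1 and Jam2- replicate 6 stood apart from the other arrays, with a mean Pearson r across rows of 0.97 and 0.968 with the others, against 0.976 to 0.98 for the rest. Of the HSC markers listed, 4 of 23 could be read. Fli1, a transcription factor of blood stem cells, had 11.18 ± 0.16 in Jam2+ and 11.31 ± 0.13 in Jam2- cells, and Esam, an adhesion molecule of HSCs, had 8.15 ± 0.17 and 8.32 ± 0.19 (SD, n = 5 each). The transcription factor Ets1 had 6.38 ± 0.33 and 6.29 ± 0.15, and the adhesion molecule Jam3 had 6.12 ± 0.17 and 6.37 ± 0.16. Of these 4 markers, 1 was above 0 and 3 were below, with a median of -0.15. None passed, and Jam3, at -0.25 (standard error 0.106), was the 1 with an unadjusted p under 0.05. CD150, c-kit, Sca-I, CD48 and Jam2 itself are not among the genes that could be read here, so the sort was not checked.

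In limma's fit over all 41345 rows, 0 rows passed a Benjamini-Hochberg adjusted p of 0.05, and the smallest adjusted p was 0.562. An unadjusted p under 0.05 was reached by 1688 rows, or 4.08%. Accordingly 0 of 8 members passed. The members were proposed with this contrast known, so their differences are a description. Of the 8, 6 were higher and 2 lower in Jam2+ cells, where 52.0% of the 2721 genes were higher, and 1 had an unadjusted p under 0.05, where 4.23% of the genes did. The differences ran from -0.11 to 0.32, against a median size of 0.076 and a 90th percentile of 0.21 over the genes.

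**Figure D2:**
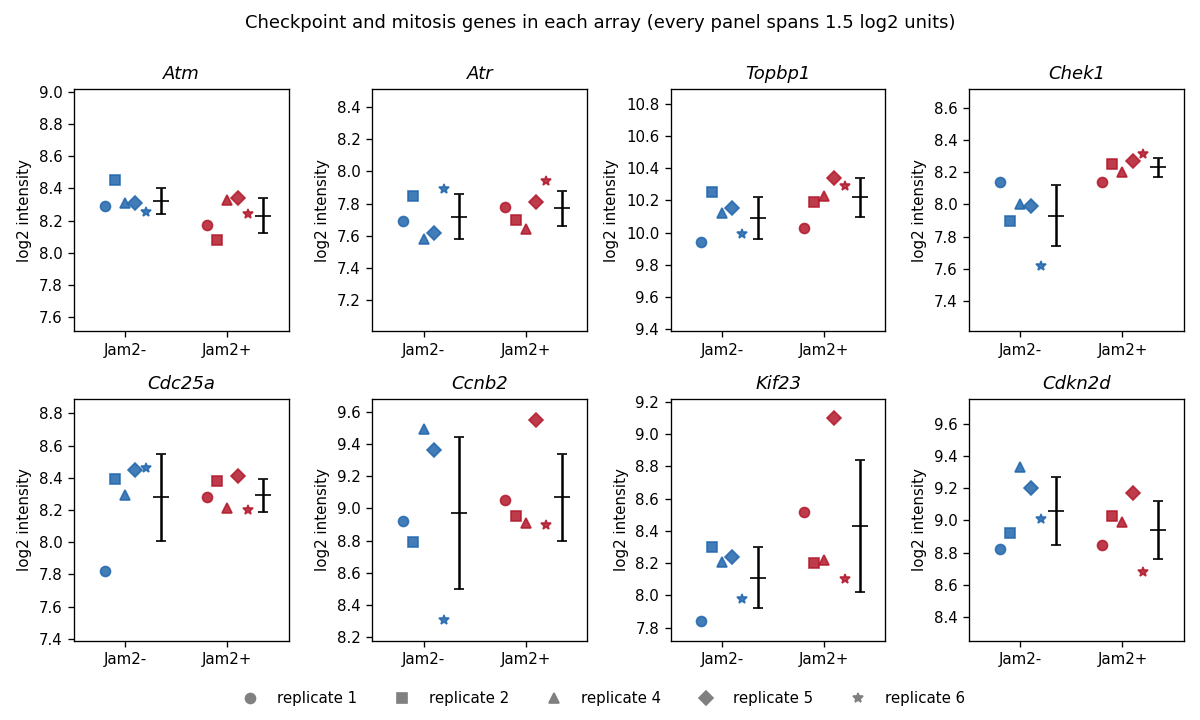
Log2 intensity (vertical axis) of the 8 genes in 5 Jam2- arrays (blue) and 5 Jam2+ arrays (red), with symbols for the replicate number and black bars for the mean and SD of each group. The groups overlap in every panel but that of Chek1, and Jam2+ replicate 5 stands high for Ccnb2 (9.55) and Kif23 (9.10).

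Among the kinases at the head of the pathway, Atm lay close together in the groups. Its Jam2+ arrays had 8.17, 8.08, 8.33, 8.34 and 8.24 in the order of replicates 1, 2, 4, 5 and 6, and its Jam2- arrays had 8.29, 8.45, 8.31, 8.31 and 8.25. The groups overlapped, with the lowest values in Jam2+ replicates 2 and 1 and the highest in Jam2- replicate 2. The means were 8.23 ± 0.11 and 8.32 ± 0.08 (SD, n = 5 each), a difference of -0.09 (standard error 0.076), and -0.05 without Jam2+ replicate 2.

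Atr, the kinase that senses stalled replication, had 7.78, 7.70, 7.64, 7.81 and 7.94 in Jam2+ arrays and 7.69, 7.85, 7.58, 7.62 and 7.89 in Jam2- arrays. Both groups covered nearly the same range, and replicate 6 was highest in each. The difference was 0.05 (standard error 0.089), and 0.01 without Jam2+ replicate 6. A dimmer row also carries the name Atr. It differed by 0.06, from 5.72 to 5.66, and its Jam2+ replicate 5 was highest at 6.31. For Atrip, the partner through which Atr binds DNA, the difference was -0.08 (standard error 0.094).

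Topbp1, the activator of Atr that also serves in starting replication, had 10.03, 10.19, 10.23, 10.34 and 10.29 in Jam2+ arrays and 9.94, 10.25, 10.12, 10.15 and 9.99 in Jam2- arrays. The groups overlapped, although 2 Jam2+ arrays, replicates 5 and 6, lay above every Jam2- array. The means were 10.22 ± 0.12 and 10.09 ± 0.13 (SD, n = 5 each), a difference of 0.13 (standard error 0.087). With 1 array left out it ran from 0.09 to 0.17.

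Chek1, the effector kinase below Atr, was the member whose groups did not overlap. Its Jam2+ arrays had 8.14, 8.25, 8.20, 8.27 and 8.31, and its Jam2- arrays 8.14, 7.90, 8.0, 7.99 and 7.62. The gap was only 0.008, between Jam2+ replicate 1 and Jam2- replicate 1, and the Jam2+ arrays spread over 0.17 against 0.51 in Jam2- arrays. Groups that lie apart with Jam2+ higher were found in 0.662% of the 2721 genes, and lower in 0.331%. Since the gene was chosen with this contrast known, nothing is read from that share.

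The Chek1 means were 8.23 ± 0.06 and 7.93 ± 0.19 (SD, n = 5 each), a difference of 0.30 (standard error 0.096), or 1.23-fold. A difference of larger size was found in 3.34% of the genes. The lowest array, Jam2- replicate 6, is also one of those that stood apart. Without it the difference was 0.23, without both arrays that stood apart 0.25, and without Jam2- replicate 1 0.36.

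Cdc25a, the phosphatase that Chek1 holds in check, had 8.28, 8.38, 8.21, 8.41 and 8.20 in Jam2+ arrays and 7.82, 8.39, 8.29, 8.45 and 8.46 in Jam2- arrays. Jam2- replicate 1 lay far below all others, and 1 Jam2+ array lay above the Jam2- median. The difference was 0.01 (standard error 0.124). It turned to -0.10 without Jam2- replicate 1, so no direction can be given.

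Of the mitotic members, Ccnb2 varied most within a group. Its Jam2+ arrays had 9.05, 8.95, 8.91, 9.55 and 8.90 and its Jam2- arrays 8.92, 8.79, 9.49, 9.36 and 8.31. High and low arrays stood in both groups, with Jam2+ replicate 5 highest and Jam2- replicate 6 lowest. The means were 9.07 ± 0.27 and 8.97 ± 0.47 (SD, n = 5 each), a difference of 0.10 (standard error 0.218). Without Jam2- replicate 6 the difference was -0.07, so its direction rests on that array.

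Kif23, a motor of the central spindle, had 8.52, 8.20, 8.22, 9.10 and 8.10 in Jam2+ arrays and 7.84, 8.30, 8.21, 8.24 and 7.98 in Jam2- arrays. Jam2+ replicates 5 and 1 lay above every Jam2- array, and the remaining 3 Jam2+ arrays lay among them. The means were 8.43 ± 0.41 and 8.11 ± 0.19 (SD, n = 5 each), a difference of 0.32 (standard error 0.183). The group medians, 8.22 and 8.21, differed by 0.01. Without Jam2+ replicate 5 the difference of means was 0.15.

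Cdkn2d, the brake on cell cycle entry, had 8.85, 9.03, 8.99, 9.17 and 8.68 in Jam2+ arrays and 8.82, 8.92, 9.33, 9.20 and 9.01 in Jam2- arrays. The groups overlapped over most of their range, with Jam2- replicate 4 highest and Jam2+ replicate 6 lowest. The difference was -0.11 (standard error 0.121), and -0.04 without Jam2- replicate 4.

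**Figure D3:**
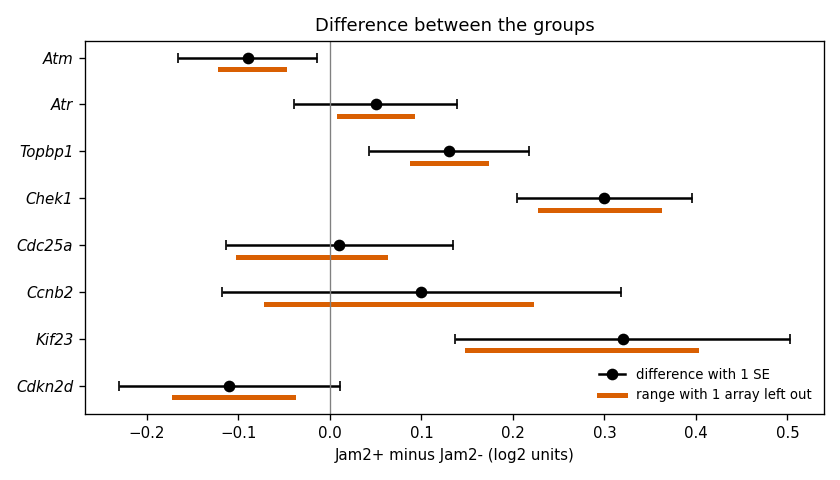
Difference between the group means of each gene in log2 units (Jam2+ minus Jam2-, black points with 1 standard error) and the range of the difference when each of the 10 arrays is left out in turn (orange). The orange range of Cdc25a (-0.10 to 0.06) and Ccnb2 (-0.07 to 0.22) spans 0, and that of Chek1 runs from 0.23 to 0.36.

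The members were also set against each other over the 10 arrays, which come from 5 mice and are not independent. Of 28 pairs, 22 had a Pearson r above 0, and r ran from -0.62 to 0.60. Ccnb2 and Kif23 had r = 0.60 (permutation p = 0.0717, adjusted 0.544) and Spearman's rho = 0.50 (permutation p = 0.144, adjusted 0.506). Without the arrays at the extremes of Ccnb2, Jam2- replicate 6 and Jam2+ replicate 5, r was 0.15, and within groups, over all 10 arrays, it was 0.62. Ccnb2 and Cdkn2d had r = 0.58 (permutation p = 0.0783, adjusted 0.544) and rho = 0.60 (permutation p = 0.0724, adjusted 0.506), and r = 0.82 without the same arrays. Atr and Cdkn2d had r = -0.62 (permutation p = 0.0579, adjusted 0.544) and rho = -0.56 (permutation p = 0.0967, adjusted 0.506), and r = -0.16 without Jam2+ replicate 6 and Jam2- replicate 4. Topbp1 and Kif23 had r = 0.59 (permutation p = 0.0613, adjusted 0.544), and r = 0.31 without Jam2- replicates 1 and 6. Cdc25a and Cdkn2d had the highest rho, 0.65 (permutation p = 0.0498, adjusted 0.506). Their r was 0.49 (permutation p = 0.159, adjusted 0.544), and 0.15 without Jam2- replicate 1 and Jam2+ replicate 6. The permutation tests were two-sided, and 0 of 28 pairs passed after Benjamini-Hochberg adjustment.

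The genes most like each member were taken from 1359 others with a mean above the median of the genes, by Pearson r over the 10 arrays, which picks high values from many. For Kif23 these were Il18 (0.88), Bex2 (0.85) and Spc24 (0.83). Ccnb2 was most like Ormdl2 (0.92), Tmsb4x (0.89) and Atp1b3 (0.88). Chek1 was most like Gm20783 (0.90), Ftx (0.86) and Zmym3 (0.86). Spc24, a kinetochore subunit, was the single gene of the G2 and mitosis list among these 9.

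The closest genes to Topbp1 were Prps1 (0.93), Thoc2 (0.89) and Taf1 (0.81), and those to Cdkn2d were Btk (0.96), Hprt (0.85) and Bbs4 (0.84). Atm was most like Ddx10 (0.84), Kank2 (0.82) and Hinfp (0.81). Atr was most like Gpatch2 (0.91), Rbbp7 (0.81) and Igsf9b (0.78). Cdc25a was most like Cwc15 (0.88), Abracl (0.86) and Gm8702 (0.83). All lay between 0.78 and 0.96.

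The remaining checkpoint genes showed no common direction. Of a list of 56 genes of checkpoint signalling, 16 could be read and 0 passed; 8 were above 0 and 8 below, with a median difference of 0.0, against 0.007 over all 2721 genes. Without the members, 4 of 11 were above 0 and their median was -0.03. Tipin, which steadies the replication fork, differed by 0.06 (standard error 0.159). Mre11a, the nuclease of the break sensor, differed by -0.10 (standard error 0.191). Usp28, a deubiquitinase of the damage response, differed by -0.06 (standard error 0.077), and Brcc3 by -0.12 (standard error 0.109).

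DNA repair genes gave a like picture, with 10 of 89 read, 6 above 0, 0 passing and a median of 0.02. The largest of these differences, by size, was that of the base excision glycosylase Neil1, at -0.15 (standard error 0.116). Of 75 genes of DNA replication, 11 could be read, of which 9 were above 0, where 52.0% of the 2721 readable genes were, and 0 passed. Their median was 0.06, and with 1 array left out it ran from 0.02, without Jam2+ replicate 5 or Jam2- replicate 1, to 0.12, without Jam2- replicate 2. It was 0.10 without Jam2+ replicate 4 or Jam2- replicate 5. Dnmt1, which copies DNA methylation behind the fork, had 10.16 ± 0.16 in Jam2+ and 10.04 ± 0.17 in Jam2- cells (SD, n = 5 each). Rbbp7, a histone chaperone, differed by 0.03 (standard error 0.077). Rrm2, a subunit of ribonucleotide reductase, differed by 0.46 (standard error 0.259). It was dim, with 5.20 ± 0.49 in Jam2+ and 4.74 ± 0.43 in Jam2- cells (SD, n = 5 each), below the median of every array.

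Beside Cdkn2d and Cdc25a, 5 of 63 genes of cell cycle entry and CDK inhibition could be read, and 0 of the 7 passed. Foxo4, a forkhead factor of quiescence and stress, was the one with an unadjusted p under 0.05. It had 6.72, 7.33, 7.23, 7.55 and 7.36 in Jam2+ arrays and 7.52, 7.52, 7.57, 7.76 and 7.52 in Jam2- arrays. Jam2+ replicate 1 was far below the others. The difference was -0.34 (standard error 0.140), and -0.21 without that array. Cks2, a small partner of cyclin-dependent kinases, differed by 0.39 (standard error 0.372). Tfdp2, a partner of E2F, differed by -0.13 (standard error 0.077).

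The G2 and mitosis genes that could be read, most of them on chromosomes 9 and X, leaned to one side. Of 158 listed, 26 could be read and 0 passed. Of the 26, 19 were above 0 and 7 below, where 52.0% of the 2721 readable genes were above 0. Their median difference was 0.11, and without the members 17 of 24 were above 0, with the same median. An earlier analysis of these arrays had shown this lean, so it is no independent evidence. Cenpi, a subunit of the inner kinetochore, stood farthest out. Its Jam2+ arrays had 6.93, 7.03, 7.01, 7.36 and 7.15, and its Jam2- arrays 6.15, 6.51, 6.56, 6.34 and 5.97. The groups were 0.375 apart. Groups apart with Jam2+ higher were found in 0.662% of the 2721 genes.

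The Cenpi means were 7.10 ± 0.17 and 6.30 ± 0.25 (SD, n = 5 each), a difference of 0.79 (standard error 0.129), and 0.71 to 0.85 with 1 array left out. Spc24 and Anln, the scaffold of the contractile ring, also had an unadjusted p under 0.05. Spc24 differed by 0.36 (standard error 0.145), and by 0.26 without Jam2+ replicate 5. Anln differed by 0.51 (standard error 0.175), and by 0.34 without Jam2+ replicate 5, where it reached 8.23 while its group otherwise ran from 7.15 to 7.63.

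Other spindle genes had differences of similar size and wider spread. Zwilch, of the complex that holds dynein at kinetochores, differed by 0.47 (standard error 0.258). Its group medians lay closer, at 7.07 in Jam2+ and 6.99 in Jam2- arrays. Without Jam2+ replicate 5, or without Jam2- replicate 6, Zwilch differed by 0.32. The motors Kif15 and Kif4 differed by 0.43 and 0.44 (standard errors 0.228 and 0.236), and the spindle checkpoint kinase Ttk by 0.40 (standard error 0.244). Kif15 differed by 0.26 and Kif4 by 0.30 without Jam2+ replicate 5, and Ttk by 0.20 without Jam2- replicate 6. Among the 7 genes below 0 were Smc1a and Stag2, of the cohesin ring, at -0.03 and -0.10, and Anapc13, a subunit of the anaphase-promoting complex, at -0.09.

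**Figure D4:**
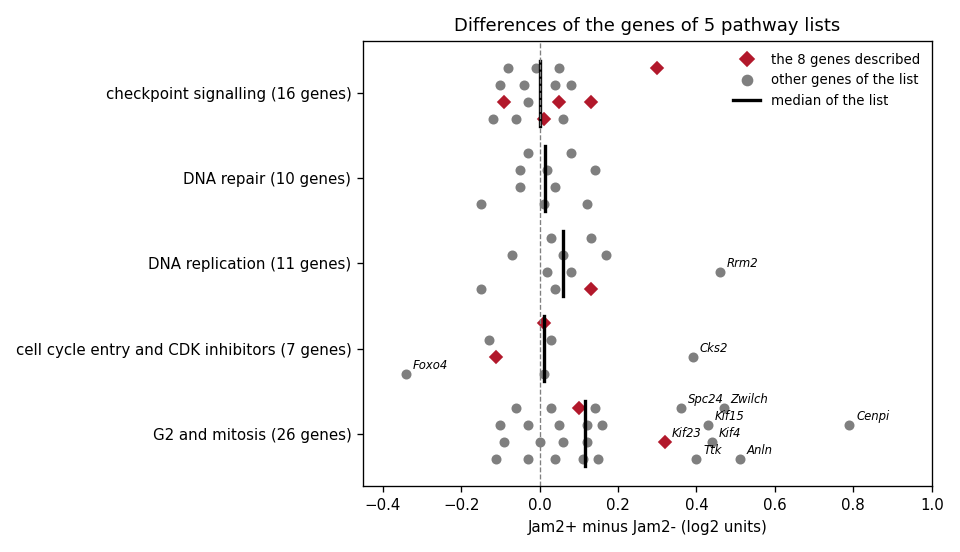
Difference between the group means (horizontal axis, log2 units, Jam2+ minus Jam2-) of the genes of 5 pathway lists, with the 8 genes described as red diamonds, other genes as grey circles and the median of each list as a black line. The medians lie between 0.0 (checkpoint signalling) and 0.11 (G2 and mitosis), and Cenpi lies farthest to the right at 0.79.

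A pair of arrays often held the extreme values of the mitotic genes. Of the 26, 13 had their highest value of all 10 arrays in Jam2+ replicate 5, and 8 had their lowest in Jam2- replicate 6. The same counts were not made over all readable genes, so they cannot show a trait of the mitotic genes. Jam2- replicate 6 is also one of the arrays that stood apart over all rows. The mean over the list was 8.21, 8.28, 8.17, 8.54 and 8.21 in Jam2+ replicates 1, 2, 4, 5 and 6, and 8.07, 8.11, 8.25, 8.17 and 7.96 in the Jam2- replicates. The groups overlapped through Jam2- replicate 4. Without Jam2+ replicate 5, 17 of 26 were above 0 and the median was 0.06. Without Jam2- replicate 6, 16 of 26 were above 0 and the median was 0.13. Without Jam2- replicate 1 the median was 0.07. In sorted bulk samples, more cycling cells and more RNA per cycling cell cannot be told apart.

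**Figure D5:**
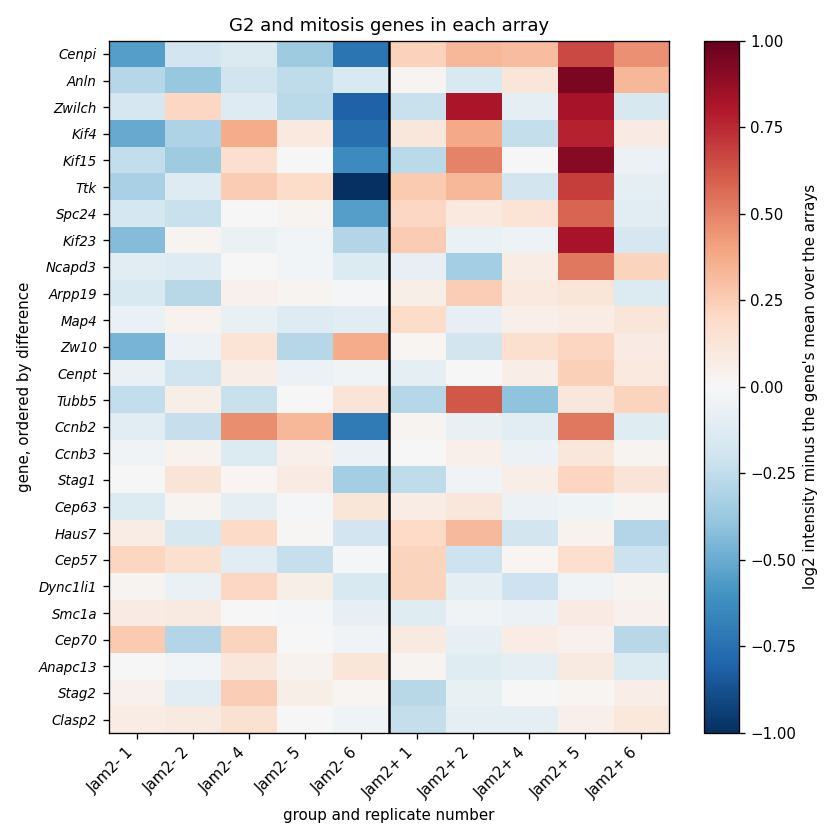
Log2 intensity minus each gene's mean over the 10 arrays (colour, red above and blue below) for 26 G2 and mitosis genes, one per line, with Jam2- arrays left and Jam2+ arrays right of the black line. Jam2+ replicate 5 is red for most spindle genes and Jam2- replicate 6 is blue for many of them, while the genes in the lower part of the map are mostly paler.

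The readable neutrophil markers were lower in Jam2+ cells by value, and none passed the adjusted threshold. Of 20 listed, 5 could be read, and 5 of 5 were below 0, where 52.0% of the 2721 readable genes were above 0. Camp, a granule peptide, had 4.13 to 4.77 in Jam2+ arrays and 5.59, 7.88, 5.02, 7.77 and 4.85 in Jam2- arrays, a difference of -1.72 (standard error 0.591). Ngp, another granule protein, differed by -1.56 (standard error 0.488), and Ltf, lactoferrin, by -0.77 (standard error 0.338), or by -0.42 without Jam2- replicate 5. Mmp8 and Cybb differed less, by -0.13 and -0.20 (standard errors 0.101 and 0.121). The groups did not overlap for Camp. Groups apart with Jam2+ lower were found in 0.331% of the 2721 genes. For Ngp, Ltf, Mmp8 and Cybb the groups overlapped. Ltf in Jam2- replicate 6, at 5.14, was below the lowest Jam2+ array, at 5.17. The mean over the 5 ran from 5.09 to 5.20 in Jam2+ and from 5.28 to 6.99 in Jam2- arrays.

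Jam2- replicate 5, the array highest in the neutrophil markers, had a G2 and mitosis mean of 8.17 and a Chek1 value of 7.99. Jam2- replicate 6, lowest among Jam2- arrays in these markers at 5.28, had 7.96 and 7.62. The part of neutrophil RNA in the differences of the members was not tested. For other lineages the means of the readable markers overlapped between the groups. They ran from 5.24 to 5.40 in Jam2+ and 5.26 to 5.37 in Jam2- arrays for T and NK cells (10 of 25 read). For monocytes and macrophages (9 of 23 read) they ran from 5.31 to 5.44 and from 5.31 to 5.51, and for erythroid cells (3 of 20 read) from 7.45 to 7.58 and from 7.47 to 7.81.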

How the data were processed

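RNA of 10 sorted HSC samples was measured on single-colour Affymetrix arrays with biotin-labelled cDNA, per the labels' protocols. The authors deposited log2 values for 41345 rows, 1 for each array. The R package oligo is named per the submitters' processing notes; no source used here gives its version, the background correction, the normalization or the genome build. Values were used as deposited; row means ran over the whole range, so genes were not centred.

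The last 5562 identifiers of the table were given, in order, the values of its first 5562 rows. Of these identifiers 2872 had 1 gene symbol in the platform annotation, 397 several and 2293 none, and 2864 of the symbols stood in RefSeq's gene table (GRCm38.p6). The brightest row stood for a gene. Limma (lmFit, then eBayes) was run over all rows with group as its one term, no filter on dim rows and Benjamini-Hochberg adjustment over all rows. The self-test, on 41345 simulated rows with 200 changed, recovered 32.8% of differences of 0.5, 78.4% of 1 and 91.2% of 2. False calls averaged 7.2 over 5 runs. Its rows had independent noise with no effects shared within an array. The largest member difference was 0.32, below the smallest size simulated, so these rates do not describe the members. Correlations between members used 100000 resamples. The number of arrays limits the precision.

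The members and lists were chosen with earlier results of these data known. All members, genes of the lists (all of the checkpoint and cell cycle entry lists, otherwise the brightest or those with an unadjusted p under 0.05), the 3 genes most like each member and marker genes could be named; the remaining names were chosen after their values were seen. Alternatives were a replicate block, each array left out, a filter on the dimmest 25%, the displaced rows alone, 2 rescalings, another prior, array weights, a threshold of 0.1, other summaries per gene and list, and, chosen after seeing the data, leaving out both arrays that stood apart. The versions were limma 3.58.1 under R 4.3.3, and scipy 1.17.1, pandas 2.3.3, matplotlib 3.10.9 and numpy 2.4.6 under Python 3.11.15.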

Additional observations from a re-analysis of the deposited data

Results flagged for a closer look

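Single arrays that lay far from their group were looked for in 26 sets of 5 values, and 4 were found, where about 1.3 would come by chance; the sets share arrays, so the count is a description. Ccnb2 in Jam2+ replicate 5 reached 9.55, and the next array of Jam2+ cells 9.05. The mean of the cell cycle entry and CDK inhibitor list was 8.32 in that same array, against 8.08. Cdc25a in Jam2- replicate 1 had 7.82, and the next lowest array 8.29. Atm in Jam2- replicate 2 was 8.45, against 8.31.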

How the results depend on the processing

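The count of rows past the threshold was 0 lower under 19 of 19 alternatives and 0 higher under 18 of 19; with 1 array left out it was 0 to 1 higher, the 1 without Jam2+ replicate 6, and it is none of the members. Rows with an unadjusted p under 0.05 numbered 1688, 1549 to 1840 with 1 array left out, 2347 without both arrays that stood apart, and 197 over the displaced rows alone, since fewer rows were tested. With the replicate block, 0 rows were higher, 0 lower and 1877 had an unadjusted p under 0.05. Chek1 still differed by 0.30, because each replicate number occurs once in each group and the block cannot change a difference. Deviations of same-numbered arrays correlated at -0.02 to 0.114, and 4 of 10 arrays were closest to the array of their own number. No chance level was set for that count, so it cannot decide whether a shared number means a shared mouse. Such a link stays possible, and the differences and standard errors given above, with group as the one term, leave it out. Among members, Atm, Atr, Topbp1, Chek1, Kif23 and Cdkn2d kept their sign under every alternative run. Cdc25a kept it under 10 of 15 and Ccnb2 under 11 of 15. These alternatives include the replicate block, which could not change a sign. The median of the cell cycle entry and CDK inhibitor list ran from -0.10 to 0.03 with 1 array left out. Those of the DNA repair and checkpoint lists ran from -0.05 to 0.06 and from -0.02 to 0.03 over all alternatives, across 0. The cause of these shifts was not tested. The pairing of names and values is inferred, and signal over background could not be assessed, since the table holds 1 value per row.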
